A study of Mus musculus with 28 samples.

Results

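The 10 genes described here encode the 4 subunits of calcium/calmodulin-dependent protein kinase II (CaMKII: *Camk2a*, *Camk2b*, *Camk2d* and *Camk2g*) and the 6 channels that release calcium from the endoplasmic reticulum, namely the 3 inositol trisphosphate (IP3) receptors (*Itpr1*, *Itpr2* and *Itpr3*) and the 3 ryanodine receptors (*Ryr1*, *Ryr2* and *Ryr3*). They were chosen by symbol from the 23038 genes of the deposited tables, and all 10 were found and passed the filter on low counts in every comparison. The samples were brain regions of mice that carry the human form of NOVA1, a neuronal RNA-binding protein, on both alleles (*Nova1* hu/hu), and of wild-type mice (*Nova1* wt/wt). The hu/hu allele was made by CRISPR/Cas9 editing and changes an isoleucine codon to valine, with silent changes beside it for genotyping; the mice were on the C57BL/6J background, and the edit is in every cell of the body. Poly(A) RNA was sequenced from midbrain of E18.5 embryos (6 hu/hu and 6 wt/wt libraries), from midbrain of 21-day-old mice (P21, 4 and 4) and from cortex at P21 (4 and 4), 28 libraries in all.

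CaMKII is a holoenzyme of many subunits that binds calcium-loaded calmodulin and then phosphorylates itself, so that it stays active after the calcium signal has ended. The alpha and beta subunits are the main forms in forebrain neurons, where they act at synapses in long-term potentiation, while the gamma and delta subunits are found in many tissues. IP3 receptors open when phospholipase C makes IP3, and ryanodine receptors open in response to calcium itself or, in skeletal muscle, to a voltage sensor. *Itpr1* is the main neuronal IP3 receptor and is known for its high level in Purkinje cells, *Itpr2* is known in astrocytes, *Ryr1* is the skeletal muscle form, *Ryr2* the cardiac form and *Ryr3* a widely expressed form.

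The level of a gene is given as TPM (a transcript abundance). TPM divides the count by exon length and sets the sum over all genes to the same total in each library. Levels can thus be compared between genes as far as the exon lengths used hold. Library totals ran from 18550922 to 45134998 counts. The lowest count of any of the 10 genes in any library was 113, for *Ryr1* in a P21 midbrain library, so that none of them was near the limit of detection. The dissections could be told apart by markers. The summed level of 7 cortical markers (*Tbr1* and others) was 1932 to 2145 TPM in the cortex libraries against 177 to 209 in P21 midbrain and 60.1 to 71.5 at E18.5, and that of 10 midbrain and brainstem markers (*Th*, *Slc17a6* and others) was 358 to 471 TPM in midbrain at both ages against 32.9 to 43.7 in cortex. Bulk samples cannot tell fewer cells of a type from less RNA per cell, which holds for every difference given below. *Nova1* itself lay at 98.4 to 125 TPM in the hu/hu and 99.3 to 126 TPM in the wt/wt libraries at E18.5, at 46.5 to 52.7 and 45.7 to 50.3 TPM in midbrain at P21 and at 23.3 to 25.5 and 22.95 to 25.5 TPM in cortex. A count of *Nova1* reads does not test the edit, since the altered codon leaves the gene's reads in place.

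The start sites of 3 genes with changes close to or above 2-fold are shown first, since the levels of *Camk2b* and *Ryr1* were higher and that of *Itpr2* lower in cortex than in midbrain. RefSeq promoters, 250 bases before to 50 bases after an annotated start in GRCm38.p6, were listed for 6 of the 10 genes. The start used need not be the outer end of the gene span given below. The *Camk2b* window lies wholly inside its span, which begins at 6066357 on the minus strand. The *Itpr2* and *Ryr1* windows include the outer ends of their spans, at 146502258 and 29125179. They are printed on the strand of the gene, and capitals mark GC boxes (GGGCGG on either strand).
Camk2b, chr11:6065699-6065998, minus strand: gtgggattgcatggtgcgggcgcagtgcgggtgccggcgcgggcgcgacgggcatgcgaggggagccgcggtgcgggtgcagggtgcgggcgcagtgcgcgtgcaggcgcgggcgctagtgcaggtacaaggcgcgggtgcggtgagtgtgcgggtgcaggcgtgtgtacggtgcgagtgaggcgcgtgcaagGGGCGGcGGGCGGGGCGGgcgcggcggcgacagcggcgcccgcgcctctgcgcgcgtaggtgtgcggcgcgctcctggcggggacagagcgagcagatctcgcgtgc
Itpr2, chr6:146502174-146502473, minus strand: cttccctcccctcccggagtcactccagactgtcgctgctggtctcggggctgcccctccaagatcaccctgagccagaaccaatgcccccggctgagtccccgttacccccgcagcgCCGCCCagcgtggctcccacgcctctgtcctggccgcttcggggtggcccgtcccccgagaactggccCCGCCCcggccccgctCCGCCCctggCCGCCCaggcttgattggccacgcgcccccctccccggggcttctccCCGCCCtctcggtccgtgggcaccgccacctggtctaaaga
Ryr1, chr7:29125102-29125401, minus strand: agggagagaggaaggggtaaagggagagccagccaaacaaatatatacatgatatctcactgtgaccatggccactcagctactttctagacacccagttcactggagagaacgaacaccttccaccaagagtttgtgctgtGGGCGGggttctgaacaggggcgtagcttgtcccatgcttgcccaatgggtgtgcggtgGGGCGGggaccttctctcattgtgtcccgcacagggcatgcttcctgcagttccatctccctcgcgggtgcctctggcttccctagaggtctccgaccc

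The *Camk2b* window had a GC content of 77.3% with 51 CpG dinucleotides, that of *Itpr2* 73.3% with 26, and that of *Ryr1* 56.7% with 9. The GC box occurred 3 times, 5 times and 2 times in the 3 windows, overlapping matches included, and was present in 35.7% of all 32851 promoter windows of that length. A TATA box (TATAAA, in 13.6% of all windows), an E-box (CACGTG, in 7.15%) and a cAMP response element (TGACGTCA, in 1.79%) were searched on both strands as well, and none of these letters stood in the 3 windows. The matches describe the sequence only, since no binding was measured.

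Because the members of each family are related, reads could in principle be assigned to the wrong gene, and the identical stretches they share were measured on the protein-coding transcripts of GENCODE vM21. The longest identical run between any pair of CaMKII subunits was 23 to 32 bases, between any pair of IP3 receptors 28 to 32 bases, and between any pair of ryanodine receptors 30 to 35 bases, all shorter than 1 sequenced read of the study. One run per family is shown, with capitals for the part that the third gene named also carries.
Camk2b and Camk2g, capitals also in Camk2d: agagagtacTACAGTGAAGCTGATGCCAG
Itpr2 and Itpr3, capitals also in Itpr1: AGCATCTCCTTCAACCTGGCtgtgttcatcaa
Ryr1 and Ryr2, capitals also in Ryr3: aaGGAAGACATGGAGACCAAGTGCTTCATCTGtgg

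The 29-base CaMKII run kept 20 bases in the third gene, the 32-base IP3 receptor run 20 bases and the 35-base ryanodine receptor run 30 bases. Overlap with other annotated genes was also small. Exons of *Itpr1*, *Itpr3*, *Ryr1* and *Ryr3* shared 1.58%, 2.59%, 4.19% and 4.83% of their bases with exons of other genes, mostly on the opposite strand (*Aven* for *Ryr3*), and those of the other 6 genes shared none. Whether the counting used strand is not given in the sources used here, so reads in those stretches are uncertain.

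The make-up of the CaMKII family differed between the 3 tissues. In E18.5 midbrain *Camk2g* held 40.9% ± 1.68 of the summed CaMKII level (mean ± SD, n = 12 libraries, both genotypes together), *Camk2b* 34.0% ± 1.25, *Camk2d* 17.3% ± 0.742 and *Camk2a* 7.80% ± 0.531. In P21 midbrain (n = 8) *Camk2g* still led with 40.3% ± 1.53, while *Camk2a* held 21.5% ± 1.32 and *Camk2d* 8.45% ± 0.391. The lead of *Camk2g* over *Camk2b* depends on the exon lengths used, 3684 and 8073 bases. In GENCODE vM21 the exons of these genes cover 6401 and 9125 bases. Before division by length *Camk2b* had more counts, at 13552 to 23778 against 9038 to 14756 in P21 midbrain. At E18.5 it had 5416 to 11439 counts against 3143 to 6085. In P21 cortex (n = 8) *Camk2a* held 66.5% ± 0.899, *Camk2b* 20.3% ± 0.453, *Camk2g* 11.1% ± 0.465 and *Camk2d* 2.07% ± 0.154. The ranges of the *Camk2a* share over libraries did not overlap between the 3 tissues (6.80% to 8.64%, 20.2% to 23.7% and 65.1% to 67.8%). The summed level of the 4 subunits was 377 ± 36.8 TPM at E18.5, 690.1 ± 13.2 in P21 midbrain and 1998 ± 55.9 in cortex.

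Among the IP3 receptors *Itpr1* had the largest share in each tissue, with 54.1% ± 3.59 at E18.5, 63.0% ± 1.83 in P21 midbrain and 88.7% ± 0.977 in cortex. *Itpr2* held 31.8% ± 3.15 and 32.3% ± 2.35 in midbrain at the 2 ages, which differed by less than their SD, and 9.51% ± 0.882 in cortex. *Itpr3* held 14.1% ± 1.49, 4.65% ± 0.703 and 1.76% ± 0.247. Among the ryanodine receptors *Ryr2* led in each tissue, with 47.1% ± 2.27, 68.0% ± 1.31 and 69.1% ± 1.17, and *Ryr1* held 16.7% ± 1.95, 2.07% ± 0.391 and 8.53% ± 0.539. The summed level of the ryanodine receptors was 46.9 ± 5.93 TPM at E18.5, 39.4 ± 1.36 TPM in P21 midbrain and 53.1 ± 1.78 TPM in cortex, and its ranges in the P21 tissues were separate (37.2 to 40.7 and 50.2 to 54.8 TPM).

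**Figure D1:**
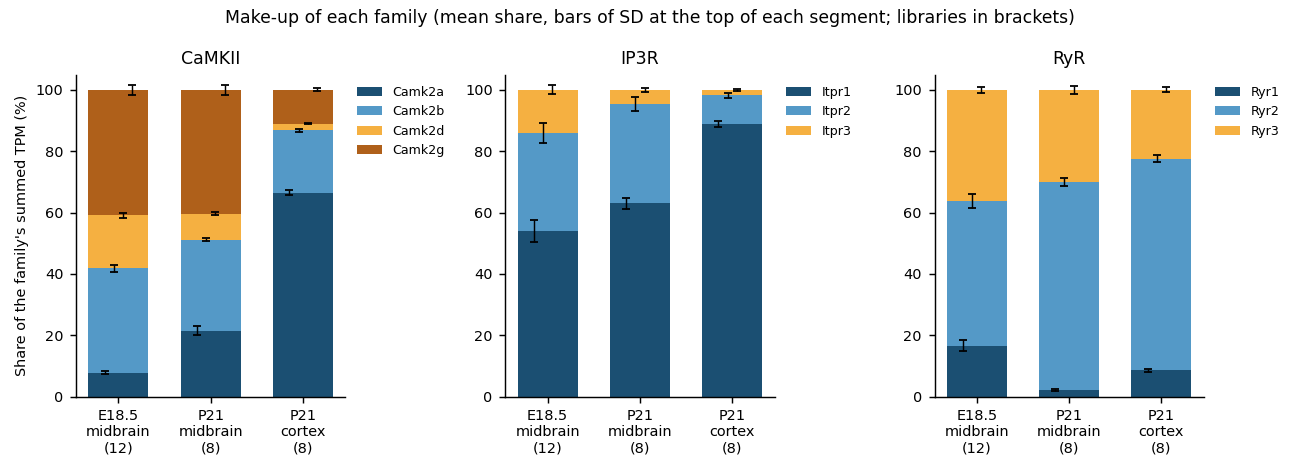
Share of each gene in its family's summed TPM (y axis, %) in E18.5 midbrain (12 libraries), P21 midbrain (8) and P21 cortex (8). Bars show the mean over libraries of both genotypes with the SD at the top of each segment; *Camk2a* fills 66.5% of the CaMKII bar in cortex against 7.80% in E18.5 midbrain.

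The order of the 10 genes by level, which also depends on the exon lengths used, changed accordingly. In E18.5 midbrain it ran *Camk2g* (155 ± 18.3 TPM), *Camk2b* (128 ± 11.7), *Camk2d* (65.2 ± 6.05), *Camk2a* (29.5 ± 3.998), *Ryr2* (22.0 ± 2.43), *Itpr1* (18.6 ± 4.57), *Ryr3* (17.0 ± 2.20), *Itpr2* (10.7 ± 1.38), *Ryr1* (7.88 ± 1.72) and *Itpr3* (4.77 ± 0.976). There only *Camk2b* and *Camk2d*, and *Camk2d* and *Camk2a*, were neighbours whose ranges over libraries did not overlap. In P21 midbrain the order was *Camk2g*, *Camk2b*, *Camk2a*, *Camk2d*, *Itpr1*, *Ryr2*, *Itpr2*, *Ryr3*, *Itpr3* and *Ryr1*, and the ranges of *Camk2d* and *Itpr1* and those of *Ryr2* and *Itpr2* overlapped. In P21 cortex the order was *Camk2a*, *Camk2b*, *Camk2g*, *Itpr1*, *Camk2d*, *Ryr2*, *Itpr2*, *Ryr3*, *Ryr1* and *Itpr3*, with overlap between *Camk2d* and *Ryr2* and between *Itpr2* and *Ryr3*. By mean level, *Camk2a* was gene 65 of all 23038 in P21 cortex, gene 1302 in P21 midbrain and gene 6703 in E18.5 midbrain, whereas *Ryr1* was gene 12194, gene 15455 and gene 11504.

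**Figure D2:**
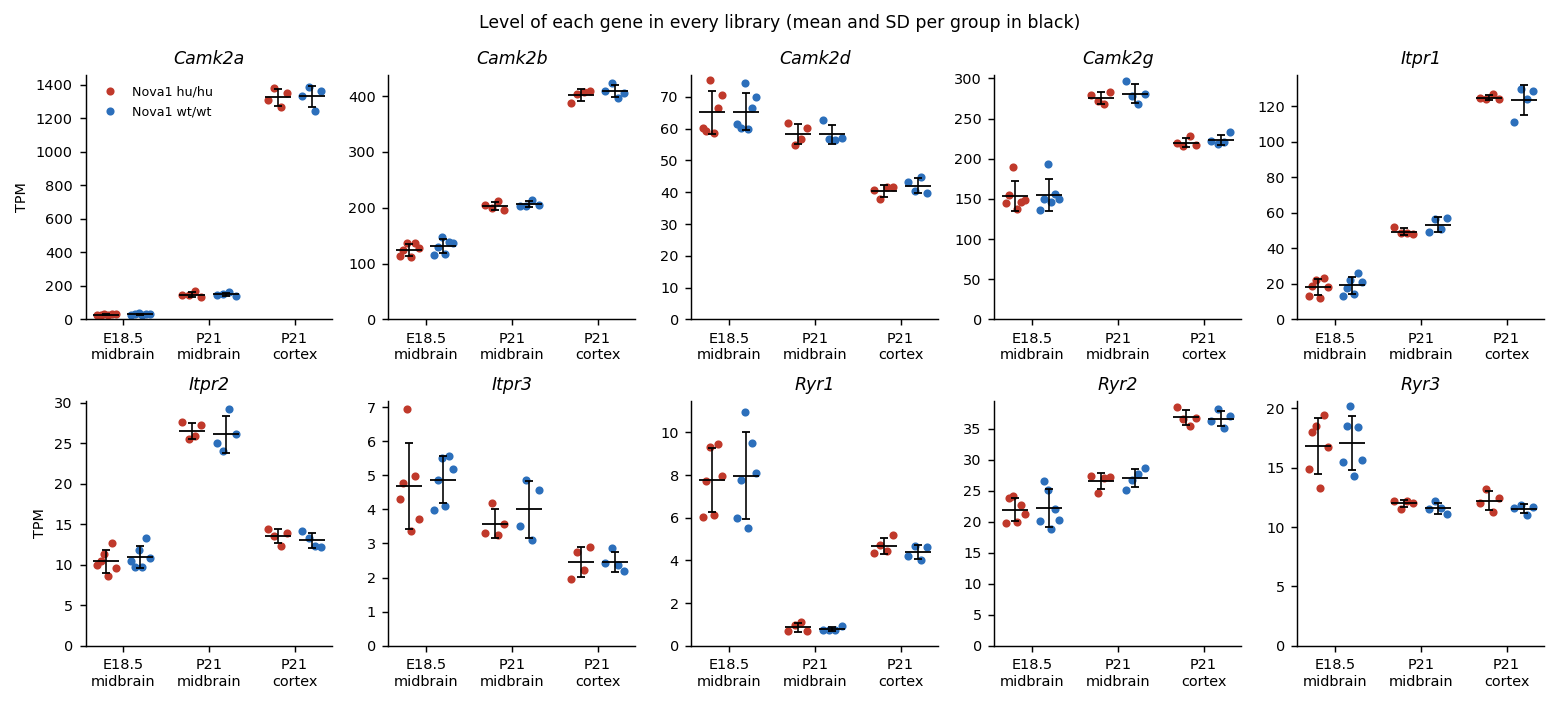
TPM (y axis, linear from 0, own scale per gene) of the 10 genes in each of the 28 libraries, grouped by tissue on the x axis. Points are libraries, red for *Nova1* hu/hu and blue for *Nova1* wt/wt, with the group mean and SD in black; in each of the 30 pairs of groups the genotypes overlap, while *Camk2a* rises from 29.5 TPM in E18.5 midbrain to 1329 TPM in P21 cortex.

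The first comparison set P21 midbrain against P21 cortex, the pair of tissues taken at 1 age. *Camk2a*, *Camk2b*, *Itpr1*, *Ryr1* and *Ryr2* were lower in midbrain, and *Camk2d*, *Camk2g*, *Itpr2* and *Itpr3* were higher there. *Ryr3* was lower in midbrain by a small margin. Fitted with edgeR's quasi-likelihood test over 8 and 8 libraries, all 10 genes passed the threshold (unadjusted p below 0.05 and adjusted p below 0.1 after Benjamini-Hochberg), 6 of them lower and 4 higher in midbrain. These counts stand beside a background of 37.9% of 16129 genes called lower and 38.1% called higher in midbrain, so that a call by itself says little in this comparison. With a change of at least 2-fold, *Camk2a*, *Camk2b*, *Itpr1* and *Ryr1* were lower, 4 of 10 against 7.44% of all genes, and none of the 10 was higher, against 7.66% of all genes. The median log2 fold change of the 10 genes was −0.31 and that of all genes was 0.0002.

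*Camk2a*, the alpha subunit, had the largest difference. In the hu/hu cortex libraries it lay at 1307, 1384, 1266 and 1350.4 TPM and in the wt/wt cortex libraries at 1335, 1384, 1245 and 1363 TPM. In midbrain it lay at 144, 145, 167 and 136 TPM in hu/hu and at 144, 149, 163 and 141 TPM in wt/wt. The lowest cortex library thus stood far above the highest midbrain library in both genotypes. The log2 fold change was −3.23 (SE 0.039, edgeR adjusted p = 7.2e-27), a level 9.42-fold lower in midbrain (95% interval 8.90 to 9.96), and 1.54% of all genes had a larger change in either direction.

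*Camk2b*, which encodes the actin-binding beta subunit, lay at 387, 404, 407 and 410.2 TPM in hu/hu and 409, 423, 397 and 405 TPM in wt/wt cortex. In midbrain it lay at 205, 199.9, 213 and 195 TPM in hu/hu and 203, 203, 214 and 205 TPM in wt/wt. The ranges were separate, with a log2 fold change of −1.06 (SE 0.022, edgeR adjusted p = 2.0e-22). The other subunits went the opposite way by less. *Camk2d* ranged from 54.8 to 62.6 TPM in midbrain and from 37.8 to 44.9 TPM in cortex (log2 fold change 0.42, SE 0.035, edgeR adjusted p = 8.2e-11). *Camk2g* ranged from 268 to 297 TPM in midbrain and from 215 to 233 TPM in cortex (0.25, SE 0.025, edgeR adjusted p = 2.0e-09).

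*Itpr1* lay at 125, 124, 127 and 124 TPM in hu/hu and 111, 129.8, 124 and 128.5 TPM in wt/wt cortex, against 52.1, 48.6, 48.8 and 47.9 TPM in hu/hu and 49.1, 56.6, 51.1 and 57.0 TPM in wt/wt midbrain. It was lower in midbrain by 1.35 on the log2 scale, or 2.55-fold (95% interval 2.41 to 2.69, edgeR adjusted p = 4.1e-20). *Itpr2* went the other way. It lay at 27.6, 25.5, 25.9 and 27.2 TPM in hu/hu and 25.1, 24.0, 29.2 and 26.1 TPM in wt/wt midbrain, against 14.4, 13.5, 12.3 and 13.9 TPM and 14.2, 13.2, 12.3 and 12.2 TPM in cortex. Every midbrain library lay above every cortex library (log2 fold change 0.91, SE 0.043, edgeR adjusted p = 1.4e-15). *Itpr3*, the form best known from epithelial cells, ranged from 3.09 to 4.87 TPM in midbrain and from 1.94 to 2.90 TPM in cortex (0.55, SE 0.098, edgeR adjusted p = 2.1e-05).

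*Ryr1* lay at 4.37, 4.73, 4.43 and 5.21 TPM in hu/hu and 4.21, 4.68, 3.99 and 4.65 TPM in wt/wt cortex. In P21 midbrain it lay at 0.683, 0.964, 1.09 and 0.71 TPM in hu/hu and at 0.725, 0.725, 0.717 and 0.901 TPM in wt/wt, on 113 to 268 counts per library. All midbrain libraries lay below all cortex libraries, and the log2 fold change was −2.55 (SE 0.081, edgeR adjusted p = 6.1e-19), or 5.84-fold (95% interval 5.20 to 6.56). *Ryr2* ranged from 24.7 to 28.7 TPM in midbrain and from 35.2 to 38.5 TPM in cortex (−0.53, SE 0.031, edgeR adjusted p = 1.1e-13). *Ryr3* ranged from 11.1 to 12.2 TPM in midbrain and from 11.04 to 13.2 TPM in cortex. Its ranges overlapped, and its log2 fold change of −0.088 (SE 0.031, edgeR adjusted p = 0.015) lost its call in the wt/wt libraries alone (−0.071), with library totals in place of scaling factors (−0.072) and in 1 fit of all 28 libraries.

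The 7 skeletal muscle markers (*Acta1*, *Ckm* and others), all detected, summed to 9.95 to 16.1 TPM in P21 midbrain and 20.1 to 31.0 TPM in cortex. *Acta1* held most of the cortex sum, at 4.4 TPM in midbrain and 19.7 TPM in cortex. *Casq1* (2.16 and 1.13 TPM), *Tnnt3* (1.38 and 0.403) and *Mylpf* (4.255 and 3.57) were on average higher in midbrain. *Ckm* (0.548 and 0.592), *Myh1* (0.184 and 0.404) and *Myh4* (0.147 and 0.354) were low in both. The part of these markers in the *Ryr1* difference was not tested. Glial markers moved with the regions as well. The 5 oligodendrocyte markers (*Mbp* and others) summed to 19815 to 22304 TPM in P21 midbrain and 5725 to 6461 TPM in cortex, and the 6 astrocyte markers to 3962 to 4309 TPM and 3045 to 3465 TPM. *Aldoc* held most of the astrocyte sum, at 2925 TPM in midbrain and 2063 TPM in cortex. *Slc1a2* alone of that list went the other way, at 500 and 763 TPM. The 5 markers of mature neurons summed to 3510 to 3850 TPM in midbrain and 4214 to 4522 TPM in cortex, and *Nefm* alone of these was higher in midbrain (420 and 143 TPM). The part of these cell types in the differences of the 10 genes was not tested.

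Genes that act with these 10 proteins were read from the same fit. Of the 95 companion genes tested, 55 were lower and 28 higher in midbrain (median log2 fold change −0.32), beside 37.9% and 38.1% of all genes, and the counts of each list stand against those shares. Of 8 calmodulins and CaMKII regulators, 7 were called lower and 1 higher in midbrain (median log2 fold change −0.59). *Nrgn*, a calmodulin-binding protein of dendritic spines, fell from 3508 TPM in cortex to 206 TPM in midbrain (log2 fold change −4.17, edgeR adjusted p = 2.5e-24), and the CaMKII inhibitor *Camk2n1* fell from 1019 to 209 TPM (−2.36, edgeR adjusted p = 7.9e-25). The other CaMKII inhibitor, *Camk2n2*, was higher in midbrain, at 227 TPM against 136 TPM (0.66, edgeR adjusted p = 1.1e-13). Of 10 other CaM kinases, 8 were lower and 1 higher (*Dapk2*), and *Camkv*, a pseudokinase, lay at 103 TPM in midbrain and 461 TPM in cortex. Of 7 calcineurin genes, which code for the calcium-dependent phosphatase and its regulators, 6 were lower, led by the catalytic subunit *Ppp3ca* (−1.77), and *Rcan2* was higher (0.82).

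Of 17 genes of IP3 production and turnover, 8 were lower and 7 higher in midbrain, shares near those of all genes. *Itpka*, a neuronal kinase that phosphorylates IP3, had the largest difference of the lists, with 307 TPM in cortex and 4.22 TPM in midbrain (−6.25, edgeR adjusted p = 1.0e-28), whereas *Itpkb* (1.80) and the phospholipase *Plcb4* (2.01) were higher in midbrain. Of 12 IP3 receptor partners tested, 5 were lower, led by *Ppp1r1b* (−3.99) and the scaffold *Homer1* (−2.19), and 4 higher, led by *Mrvi1* (1.92). Of 18 ryanodine receptor partners and junctional proteins, 11 were lower and 5 higher; the largest difference was that of *Trdn* (−3.64, at 0.0358 and 0.45 TPM), and *Jsrp1* lay at 1.01 TPM in midbrain and 5.95 TPM in cortex (−2.61). Of 14 genes of calcium uptake and store-operated entry, 4 were lower and 7 higher, led by the pump *Atp2a1* (3.16, 7.28 TPM in midbrain and 0.766 TPM in cortex). Of 9 voltage-gated calcium channel alpha1 subunits, 6 were lower, with *Cacna1e* at −1.02, and 2 higher, with *Cacna1g* at 0.86.

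The second comparison set P21 midbrain against E18.5 midbrain, over 8 and 12 libraries. *Camk2a*, *Camk2b*, *Camk2g*, *Itpr1*, *Itpr2* and *Ryr2* were higher at P21, *Ryr1* and *Ryr3* were lower, and *Camk2d* and *Itpr3* did not pass the test. The 6 genes called higher stand beside 42.6% of 16100 genes called higher, and the 2 called lower beside 43.2%. With at least a 2-fold change, 4 of the 10 were higher (*Camk2a*, *Camk2g*, *Itpr1* and *Itpr2*) against 15.8% of all genes, and 1 was lower (*Ryr1*) against 14.4%. The median log2 fold change of the 10 genes was 0.69 and that of all genes −0.01. With library totals in place of TMM factors the median of all genes moved by −0.16 and 41.5% of the called genes were higher instead of 49.7%, so that changes close to that shift depend on the scaling. Under that scaling *Camk2d* and *Itpr3* were called lower. The 2 ages come from different animals, and any difference in how they were handled cannot be told apart from age.

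*Camk2a* ranged from 23.6 to 36.6 TPM at E18.5, with a median of 30.2, and from 136 to 167 TPM at P21. The log2 fold change was 2.54 (SE 0.061, edgeR adjusted p = 6.9e-23), or 5.82-fold (95% interval 5.34 to 6.36). *Camk2b* rose from 112 to 148 TPM at E18.5 to 195 to 214 TPM (0.89, SE 0.040, edgeR adjusted p = 4.4e-17) and *Camk2g* from 136 to 193 TPM to 268 to 297 TPM (1.06, SE 0.047, edgeR adjusted p = 4.6e-17). The ranges at the 2 ages were separate for these 3 subunits. *Camk2d* ranged from 58.7 to 75.2 TPM at E18.5 and from 54.8 to 62.6 TPM at P21, so that its ranges overlapped and its TPM was lower at P21, while the TMM-scaled estimate was 0.04 (SE 0.043, 95% interval −0.05 to 0.13, edgeR adjusted p = 0.35). With library totals the estimate for *Camk2d* was −0.11.

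*Itpr1* ranged from 12.1 to 26.2 TPM at E18.5 and rose to 47.9 to 57.0 TPM at P21 (log2 fold change 1.67, SE 0.101, edgeR adjusted p = 2.4e-14). *Itpr2* ranged from 8.56 to 13.4 TPM and rose to 24.0 to 29.2 TPM (1.51, SE 0.058, edgeR adjusted p = 1.4e-18). Both had separate ranges at the 2 ages. *Itpr3* ranged from 3.36 to 6.93 TPM at E18.5 and from 3.09 to 4.87 TPM at P21, with an estimate of −0.12 (SE 0.104, edgeR adjusted p = 0.29). With library totals the estimate for *Itpr3* was −0.28.

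*Ryr1* fell the most of the 10 genes. It ranged from 5.54 to 10.97 TPM at E18.5, with a median of 7.85 in hu/hu and 7.94 in wt/wt, and from 0.683 to 1.09 TPM at P21, so that the lowest E18.5 library lay far above the highest P21 library. It fell by 3.06 on the log2 scale (SE 0.128, edgeR adjusted p = 9.0e-18), or 8.32-fold (95% interval 6.94 to 9.99), and 3.22% of all genes changed more. *Ryr2* ranged from 18.8 to 26.6 TPM at E18.5 and from 24.7 to 28.7 TPM at P21, with overlapping ranges and a log2 fold change of 0.49 (SE 0.046, edgeR adjusted p = 2.9e-10). *Ryr3* ranged from 13.3 to 20.2 TPM and fell to 11.1 to 12.2 TPM, with separate ranges (−0.32, SE 0.055, edgeR adjusted p = 9.6e-06).

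**Figure D3:**
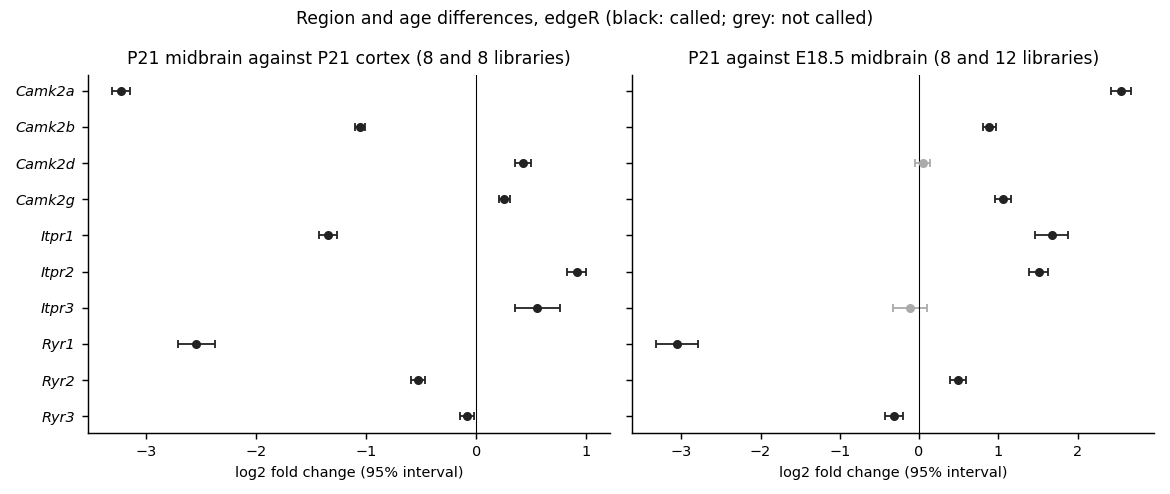
Log2 fold change (x axis) with its 95% interval for P21 midbrain against P21 cortex (left, 8 and 8 libraries) and for P21 against E18.5 midbrain (right, 8 and 12 libraries), edgeR. Black points passed the threshold and grey points did not; *Ryr1* lies at −2.55 on the left and −3.06 on the right, and *Camk2a* at −3.23 and 2.54.

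Set side by side, *Camk2a*, *Camk2b*, *Itpr1* and *Ryr2* had their highest level in P21 cortex and their lowest in E18.5 midbrain, with the P21 midbrain between. *Camk2g* and *Itpr2* were highest in P21 midbrain, and *Ryr1* and *Ryr3* in E18.5 midbrain. *Camk2d* and *Itpr3* had their highest mean TPM at E18.5 too, but their ranges there overlapped those of P21 midbrain and neither passed the test of age, where the estimate for *Camk2d* had the opposite sign. The ratio of the highest to the lowest tissue mean was 45.1 for *Camk2a*, 9.67 for *Ryr1*, 6.68 for *Itpr1*, 3.17 for *Camk2b* and 2.46 for *Itpr2*, and between 1.44 (*Ryr3*) and 1.94 (*Itpr3*) for the other 5. The P21 midbrain libraries enter both comparisons, so the region and age differences share those samples. Markers of the other cell types also moved with age in midbrain. The 6 markers of progenitors and immature neurons summed to 396 to 431 TPM at E18.5 and 53.4 to 71.8 TPM at P21. *Dcx*, the immature neuron marker, held the largest part of that sum at E18.5 (means of 194 and 3.97 TPM). The mature neuron markers summed to 933 to 1117 TPM at E18.5 and 3510 to 3850 TPM at P21. The oligodendrocyte markers summed to 58.2 to 81.9 TPM and 19815 to 22304 TPM. The skeletal muscle markers summed to 13.4 to 20.4 TPM at E18.5 and 9.95 to 16.1 TPM at P21. Of these, *Acta1* (means of 7.38 and 4.4 TPM) and *Tnnt3* (4.003 and 1.38) were lower at P21. *Ckm*, *Myh1* and *Myh4* were also lower at P21 on average and were low at both ages. *Mylpf* (2.48 and 4.255 TPM) and *Casq1* (1.93 and 2.16) were on average higher at P21. The 6 cerebellar granule cell markers summed to 194 to 242 TPM and 60.7 to 89.4 TPM. *Zic1* held most of the granule cell sum, at a mean of 150.2 TPM at E18.5 and 53.7 TPM at P21. *Neurod1* (32.6 and 3.62 TPM), *Barhl1* (28.98 and 5.21) and *Fat2* (2.89 and 1.84) were also lower at P21. *Gabra6* (0.0801 and 2.52 TPM) and *Cbln3* (0.628 and 2.68) went the other way. The sum thus does not give the direction of every marker in that list. The part of these cell types in the age differences was not tested.

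In the companion lists, 12 of 13 genes of calcium uptake and store-operated entry were called higher at P21 and none lower, with a median log2 fold change of 0.62, led by *Atp2a1* (2.76, from 1.23 to 7.28 TPM) and *Atp2a3* (2.07). Of the calmodulins and CaMKII regulators, 6 of 8 were higher and 1 lower. *Nrgn* rose from 47.9 to 206 TPM (2.30) and *Pcp4* from 428 to 1020 TPM (1.46), and the growth cone protein *Gap43* fell from 1796 to 418 TPM (−1.90). Of the other CaM kinases, 6 of 10 were higher, led by *Dapk2* (2.94) and *Camkk1* (1.39), and 3 lower, among them *Dapk1* (−0.65) and *Camk4* (−0.55). Of 7 calcineurin genes 3 were higher (*Rcan2* at 1.35) and 3 lower (*Rcan1* at −0.54).

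Of 17 genes of IP3 production and turnover, 10 were higher, led by *Itpkb* (2.18) and *Itpka* (1.85, from 1.33 to 4.22 TPM), and 5 lower, led by the metabotropic glutamate receptor *Grm5* (−1.24) and the G protein subunit *Gnaq* (−0.78). Of 12 IP3 receptor partners, 6 were higher and 5 lower, with *Ppp1r1b* at 3.11 and *Mrvi1* at 2.41 against *Itprip* at −1.66 and *Car8* at −1.53. Of 16 ryanodine receptor partners, 11 were higher and 4 lower. *Stac2* (2.64, from 14.8 to 80.1 TPM) and the calsequestrin *Casq2* (2.50) led the first and *Hrc* (−1.86) and *Stac3* (−1.73, from 6.51 to 1.68 TPM) the second; STAC3 links the voltage sensor to *Ryr1* in skeletal muscle. Of 9 alpha1 subunits 3 were higher (*Cacna1i* at 1.004) and 5 lower (*Cacna1h* at −1.47, *Cacna1e* at −1.01). Over all 92 companion genes tested, 57 were higher and 26 lower (median log2 fold change 0.35), beside the 42.6% and 43.2% of all genes.

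The third set of comparisons asked whether the human form of NOVA1 changes the level of these genes. In each tissue the TPM of hu/hu and wt/wt libraries overlapped for all 10 genes, as plotted by library above. None of the 10 was called in any tissue. The background was 0% called in each (0 of 15540, 15972 and 15767 genes by edgeR's quasi-likelihood test, with 1.29%, 2.67% and 2.85% of genes at an unadjusted p under 0.05). DESeq2 called 0, 1 and 0 genes and edgeR's exact test 0, 1 and 0, none of them among the 10. The TPM of the genotypes did not overlap for 0.0515% of all genes at E18.5, 1.92% in P21 midbrain and 2.02% in P21 cortex.

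At E18.5 the estimates of all 10 genes were below 0, from −0.09 (*Itpr1*) to −0.01 (*Camk2d*) on the log2 scale, with a median of −0.04 against −0.0006 for all genes; they come from the same 12 libraries and are not independent, and with library totals those of *Camk2d*, *Camk2g* and *Ryr2* were above 0. The 95% intervals without the replicate block reached from −0.42 to 0.24 for *Itpr1*, from −0.33 to 0.25 for *Ryr1* and from −0.23 to 0.14 for *Camk2a*. With the block they were narrower, from −0.18 to 0.0018 for *Itpr1*, from −0.13 to 0.07 for *Ryr1* and from −0.15 to 0.06 for *Camk2a*. In P21 midbrain 6 estimates were below 0 and 4 above. *Itpr1* had the smallest unadjusted p and was the only one of the 10 below 0.05, with a log2 fold change of −0.11 (SE 0.051, edgeR adjusted p = 0.99996), and 3 of its 4 hu/hu libraries lay below all wt/wt libraries. The 7 cortical markers, higher in cortex than in midbrain like *Itpr1*, summed to 177 to 191 TPM in the hu/hu and 193 to 209 TPM in the wt/wt libraries of P21 midbrain, while the Purkinje cell markers summed to 155 to 174 TPM and 171 to 176 TPM and the cerebellar granule cell markers to 60.7 to 69.7 TPM and 61.7 to 89.4 TPM. The ranges of the cortical list were separate and those of the other lists overlapped. Each sum rests mostly on a few genes. Over the 8 P21 midbrain libraries the largest means were *Slc17a7* (140 TPM) in the cortical list and *Calb1* (88.45) and *Rgs8* (61.2) in the Purkinje cell list. *Zic1* (53.7 TPM) led the granule cell list, in which *Gabra6* ran from 0.186 to 7.07 TPM and *Cbln3* from 0.651 to 7.04 TPM. The part of these cells in the *Itpr1* estimate was not tested. A two-sided exact permutation test of the mean log2 TPM over all 70 splits gave p = 0.14 for *Itpr1*, the smallest of the 30 such tests run. The permutation tests did not pair same-numbered libraries. *Itpr3* (−0.16, SE 0.133) and *Ryr1* (0.17, SE 0.155) had larger estimates with wider errors. In P21 cortex 5 estimates were below and 5 above 0, from −0.05 (*Camk2d*) to 0.10 (*Ryr1*), and *Ryr3* had the smallest p (0.09, SE 0.047, edgeR adjusted p = 0.99985). *Ryr1* and *Ryr3* were each higher in hu/hu in 4 of 4 same-numbered pairs of cortex libraries, with an edgeR adjusted p of 0.87 for both under the block. The share of all genes with 4 of 4 pairs in the same direction was not counted. The interval for *Camk2a* in cortex ran from −0.07 to 0.06 on the log2 scale.

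**Figure D4:**
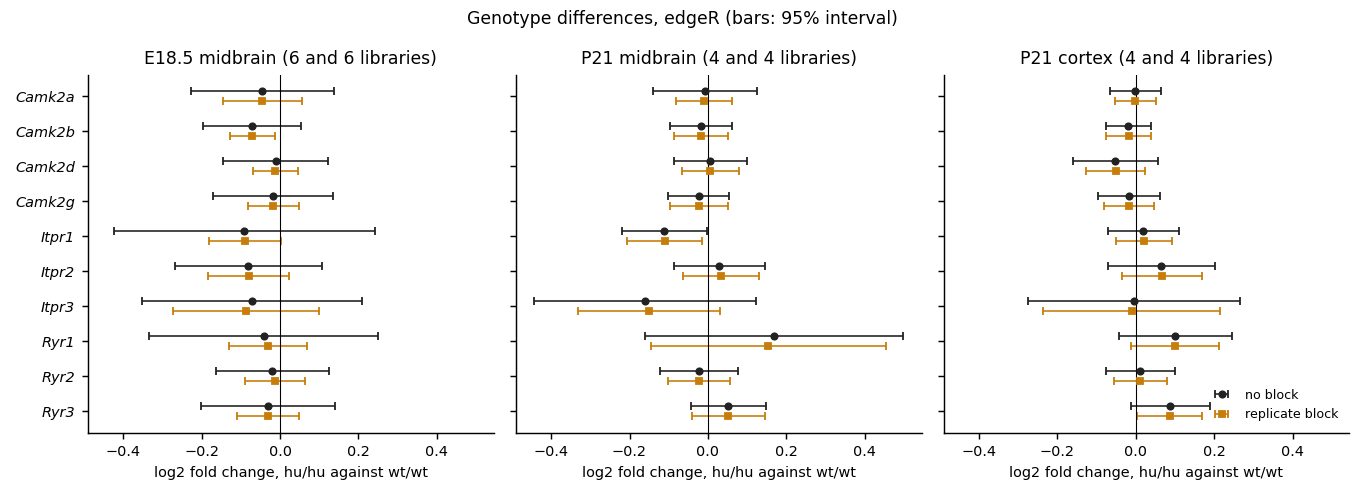
Log2 fold change of *Nova1* hu/hu against wt/wt (x axis) with its 95% interval for the 10 genes in the 3 tissues, by edgeR without (black circles) and with the library number as a block (orange squares). All estimates lie between −0.16 and 0.17 without the block, and none passed the adjusted threshold in either fit.

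The effect of genotype was also compared between tissues by an interaction term. None of the 10 genes was called for the difference between P21 midbrain and P21 cortex (background 0% of 16345 genes, 373 at an unadjusted p under 0.05) or between P21 and E18.5 midbrain (0% of 16330 genes, 303 at an unadjusted p under 0.05). The estimates for the first ran from −0.15 (*Itpr3*, SE 0.199) to 0.07 (*Ryr1*, SE 0.165), with *Itpr1* at −0.13 (SE 0.071, 95% interval −0.27 to 0.02). Those for the second ran from −0.08 (*Itpr3*, SE 0.212) to 0.21 (*Ryr1*, SE 0.246). Of the companion genes none was called for genotype in any tissue. Those with the smallest p were *Inpp5b* (−0.12), *Casq2* (−0.48) and *Ppp1r1b* (−0.30) at E18.5, *Car8* (−0.23), *Ppp1r1b* (−0.18) and *Homer3* (−0.21) in P21 midbrain and *Camk1g* (−0.14), *Casq2* (0.39) and *Camkk1* (−0.10) in P21 cortex, all with an edgeR adjusted p of 0.99985 or more.

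The libraries of E18.5 midbrain varied more than those of P21, and they varied in pairs. The coefficient of variation over libraries was 24.5% for *Itpr1*, 21.8% for *Ryr1* and 20.4% for *Itpr3* at E18.5, against 7.04%, 18.54% and 17.3% for the P21 midbrain libraries and 4.54%, 8.19% and 14.2% for those of cortex. The hu/hu and wt/wt libraries with the same number resembled each other. *Itpr1* lay at 13.4, 18.9, 22.4, 12.1, 23.4 and 18.2 TPM in hu/hu libraries 1 to 6 and at 13.4, 17.8, 22.4, 14.2, 26.2 and 20.8 TPM in wt/wt libraries 1 to 6. Numbers 1 and 4 were low and numbers 3 and 5 high in both genotypes. *Ryr1* followed the same order of low and high numbers, at 6.02, 7.73, 9.33, 6.14, 9.46 and 7.97 TPM in hu/hu and 5.99, 7.77, 10.97, 5.54, 9.48 and 8.11 TPM in wt/wt.

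Across the 6 numbers the mean of the pair differed by 1.88-fold for *Itpr1* and 1.74-fold for *Ryr1*, while the genotypes within a pair differed by a median of 1.09-fold and 1.01-fold. For *Camk2d* the deviations of the paired libraries from their group means had a Pearson correlation of 0.99 over the 6 pairs, for *Camk2b* 0.96, for *Ryr1* 0.96 and for *Itpr1* 0.95, and the lowest was 0.55 for *Itpr3*; these are given as a description. *Camk2g* stood out in number 3 alone, at 190.4 TPM in hu/hu and 193 TPM in wt/wt against 136 to 157 TPM in the other 10 libraries. With the library number as a block, the SE of the genotype effect fell from 0.158 to 0.044 for *Itpr1* and from 0.139 to 0.047 for *Ryr1*. *Camk2b* was then lower in hu/hu by 0.07 on the log2 scale (SE 0.027, edgeR adjusted p = 0.93), which does not pass the threshold. It was lower in 6 of 6 pairs, and the share of all genes with 6 of 6 pairs in the same direction was not counted.

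**Figure D5:**
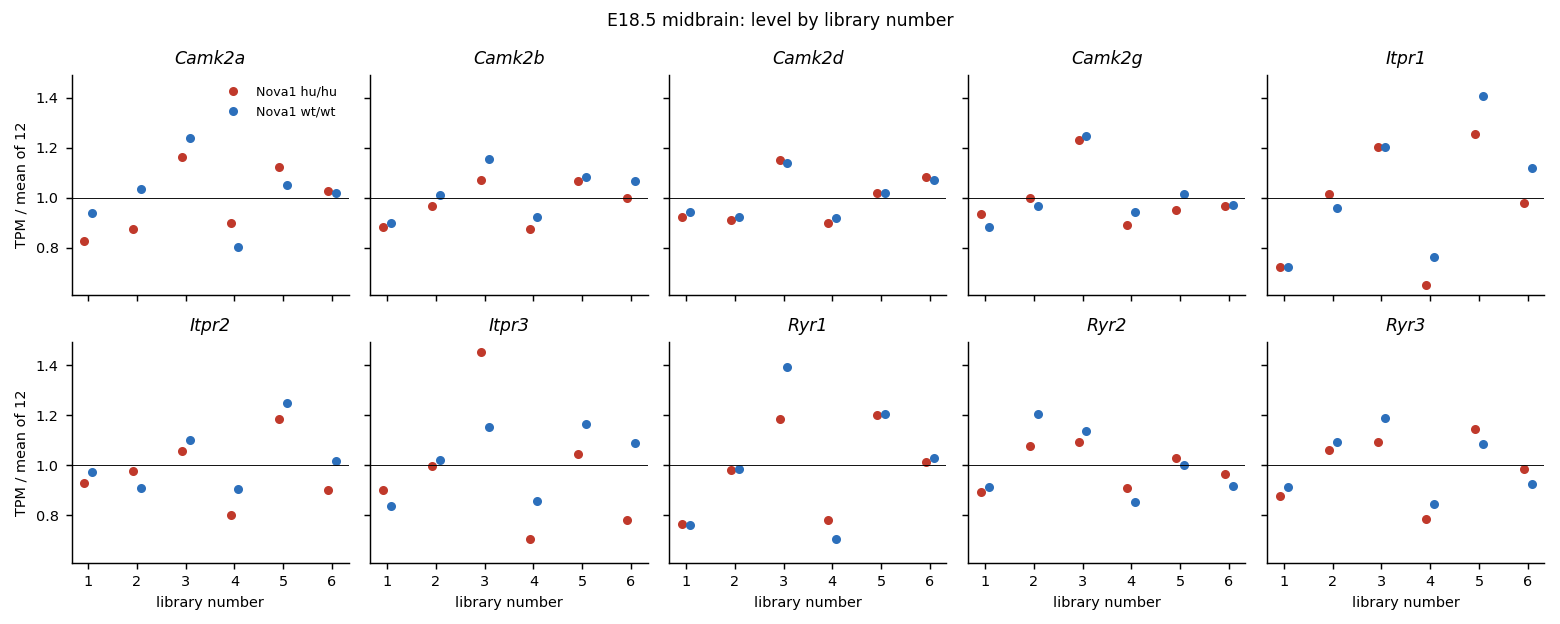
TPM divided by the mean of the 12 E18.5 midbrain libraries (y axis) against library number (x axis) for the 10 genes, red for *Nova1* hu/hu and blue for *Nova1* wt/wt. The 2 points of a number lie close to each other for most genes; for *Itpr1* and *Ryr1* numbers 1 and 4 are low and 3 and 5 high in both genotypes.

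Marker lists differed between the numbers too. The astrocyte markers summed to 679, 742, 864, 668, 920.5 and 812 TPM as the pair means of numbers 1 to 6, the microglia markers to 58.3, 61.6, 65.4, 51.7, 80.5 and 65.2 TPM and the Purkinje cell markers to 152, 156, 174, 145, 197 and 170.4 TPM. All 3 were lowest in number 4 and highest in number 5, as *Itpr1* was, and so were the endothelial and mature neuron lists. Most of the Purkinje cell sum at E18.5 came from *Calb1* (67.6 TPM), *Rgs8* (51.0) and *Car8* (36.1), with *Pcp2* at 7.61 and *Ppp1r17* at 2.92 TPM. Over the 12 libraries the log2 level of *Itpr1* had a Pearson correlation of 0.93 with that of the astrocyte list, 0.89 with the microglia list and 0.86 with the Purkinje cell list, and that of *Ryr1* 0.93, 0.75 and 0.85. Some other lists gave values of a like size. *Itpr1* had 0.86 with both the mature neuron and the endothelial list and 0.81 with the oligodendrocyte list, and *Ryr1* had 0.88, 0.76 and 0.81. The midbrain list went the other way, at −0.40 for *Itpr1* and −0.45 for *Ryr1*. The list of progenitors and immature neurons gave −0.007 and −0.049, skeletal muscle 0.37 and 0.41, and cardiac muscle 0.375 and 0.53. The 12 libraries form 6 pairs, and the sums share library composition with the genes. The midbrain markers ranged from 362 to 407 TPM over the numbers, lowest in number 2. The part of tissue composition in the spread of the 10 genes was not tested.

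The genes whose levels were most like those of each member over the 28 libraries were ranked by the Pearson correlation of log2(TPM + 1), among genes with a mean of at least 5 TPM; the points fall into 3 tissues, and the values are descriptions of that shared pattern. *Camk2a* was nearest to *Fam163b* (0.998), *Pgbd5* (0.997) and *Camk2b* (0.997), and *Camk2b* to *Pgbd5* (0.998), *Mical2* (0.998) and *Gas7* (0.997). Genes near *Camk2d* included *Gpr107* (0.968) and *Msi2* (0.967), and *Camk2g* was nearest to *Fam73a* (0.986), *Ahcyl1* (0.986) and *2310001A20Rik* (0.985). *Ahcyl1* codes for a protein that competes with IP3 for its receptor and was one of the listed partners.

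Genes near *Itpr1* included *Mgll* (0.995) and *Camta2* (0.995), and *Itpr2* was nearest to *Clic4* (0.988), *Slc4a4* (0.986) and *Parvb* (0.986). *Slc4a4* codes for a bicarbonate transporter found in astrocytes. *Itpr3* had the weakest likeness, to *Rela* (0.932), *Gusb* (0.926) and *Mxra8* (0.921). *Ryr1* was nearest to *Ankrd13b* (0.989), *Trim46* (0.988) and *Mgat4b* (0.988), *Ryr2* to *Ppapdc2* (0.972), *1700113A16Rik* (0.969) and *Syt7* (0.968), and *Ryr3* to *BC090627* (0.972), *Wbp7* (0.969) and *2310021P13Rik* (0.968).

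By RefSeq in GRCm38.p6, *Camk2b* spans chromosome 11 from 5969629 to 6066357, *Camk2d* chromosome 3 from 126595487 to 126846326 and *Camk2g* chromosome 14 from 20734873 to 20794157. *Itpr1* and *Itpr2* lie on chromosome 6, from 108213083 to 108551116 and from 146108299 to 146502258, and *Itpr3* on chromosome 17 from 27057002 to 27122223. *Ryr1* spans chromosome 7 from 29003340 to 29125179, *Ryr2* chromosome 13 from 11553099 to 12106945 and *Ryr3* chromosome 2 from 112631354 to 113217405. The exon lengths behind the TPM values ran from 3684 bases for *Camk2g* to 18866 bases for *Ryr1*, so that at an equal TPM a ryanodine receptor collects several times the reads of *Camk2g*.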

How the data were processed

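Poly(A) RNA libraries were made with the TruSeq protocol and sequenced as paired ends. The authors used OLego for alignment to mm10 and Quantas for counts per gene; the annotation is not given in the sources used here. For each library the authors deposited expected counts, which were not whole for 751 to 2715 genes, exon lengths and RPKM. RPKM as deposited could be recomputed from those 2 columns (largest relative difference 2.27e-13) and were not used otherwise. The submitters' processing notes name edgeR. TPM was computed from the unrounded counts. Expected counts were rounded for the tests and compared with edgeR 4.0.16 in R 4.3.3 (TMM factors, filterByExpr, glmQLFit and glmQLFTest, two-sided), within each tissue for genotype, over P21 libraries for region and over midbrain libraries for age, with genotype as a covariate in the last 2. Calls needed an unadjusted p below 0.05 and an adjusted p below 0.1 (Benjamini-Hochberg, all genes tested), the thresholds of the study. Depth was 18550922 to 45134998 counts per library, and TPM depends on the exon lengths used and on library composition. The labels do not tie libraries to animals or litters, so p-values measure the spread between libraries.

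Same-numbered hu/hu and wt/wt libraries deviated together over all genes (correlations of 0.171 to 0.391 at E18.5, 0.201 to 0.235 for midbrain and 0.17 to 0.246 for cortex at P21; the pairing is taken from the numbers in the labels and this check), and a fit with the number as a block was run. Alternatives were RLE factors, library totals, DESeq2 1.42.0, edgeR's exact test, all genes with a count, a minimum of 10 counts per library, a stricter adjusted p (0.05), 1 fit of all 28 libraries, 1 genotype alone, and each library left out; leaving out libraries in the permutation tests was added after the data were seen. The 7 quasi-likelihood comparisons, without the block, were tested on simulated data with known changes; the alternatives were not. The 10 genes, the companion lists and the markers were chosen with earlier results of these data known. Companion genes were named as the 2 largest changes in each direction among those called in each list, and for genotype as the 3 with the smallest p. The 3 genes most like each of the 10 were ranked by correlation over the 28 libraries, and some of them are not reported here. Sequences were taken from RefSeq (GRCm38.p6) and GENCODE vM21.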

Additional observations from a re-analysis of the deposited data

Results flagged for a closer look

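In 6 of the 60 gene-by-group sets of TPM values, a library stood apart from the rest of its group by Dixon's criterion, where chance alone gives about 1 in 20. *Camk2g* stood high in number 3 of both genotypes in E18.5 midbrain, at 190.4 TPM in hu/hu (next highest 154) and 193 TPM in wt/wt (next highest 157). In P21 midbrain of wt/wt mice *Camk2b* stood high in library 3 at 214.3 TPM (next 205), *Camk2d* in library 1 at 62.63 TPM (next 57.2) and *Ryr1* in library 4 at 0.9012 TPM (next 0.725). In P21 midbrain of hu/hu mice *Ryr2* stood low in library 2 at 24.66 TPM (next 27.1). No cause of these values was tested.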

How the results depend on the processing

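In P21 midbrain the count of genes called for genotype was 0 by edgeR's quasi-likelihood test, 1 by DESeq2, 1 by edgeR's exact test and 4 with the replicate block, none of them among the 10 genes; the cause was not tested. The paired fit changed no call of the 10 genes and gave 0 genes in E18.5 midbrain and P21 cortex and 12200 for region. The same numbers in midbrain and cortex correlated at −0.201 to −0.102, against medians of 0.109 (hu/hu) and 0.084 (wt/wt) for other numbers. The numbers thus did not pair the regions. Whether midbrain and cortex libraries share mice under other numbers is not in the labels, and the region test treated them as separate. Of the 10 genes, 9 to 10 were called for region and 8 to 10 for age under every alternative run, and *Ryr3* lost its region call with library totals, in 1 fit of all libraries and in wt/wt alone. Library totals reversed *Camk2d* for age (−0.1144) and, for genotype, *Camk2d* (0.0122), *Camk2g* (0.0064) and *Ryr2* (0.0034) at E18.5 and *Camk2d* (−0.0176) in P21 midbrain, where the median of all genes moved by −0.158, 0.023 and −0.0232. Of the genotype estimates, none of which was called, 16 changed sign when 1 library was left out. At E18.5 they ran from −0.0967 to 0.0106 (*Camk2a*), −0.0436 to 0.0187 (*Camk2d*), −0.0748 to 0.043 (*Camk2g*), −0.172 to 0.0163 (*Itpr1*), −0.1202 to 0.0603 (*Ryr1*), −0.0544 to 0.0342 (*Ryr2*) and −0.0705 to 0.0199 (*Ryr3*). In P21 midbrain they ran from −0.0755 to 0.0402 (*Camk2a*), −0.0447 to 0.0045 (*Camk2b*), −0.0161 to 0.0389 (*Camk2d*), −0.0046 to 0.0897 (*Itpr2*) and −0.059 to 0.0081 (*Ryr2*). In P21 cortex they ran from −0.0251 to 0.0191 (*Camk2a*), −0.0251 to 0.0432 (*Itpr1*), −0.0858 to 0.0841 (*Itpr3*) and −0.0167 to 0.0301 (*Ryr2*). The TPM of 14 of the 30 gene-by-tissue means moved by more than 1 SD when computed from TMM-scaled counts.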
